A study of Mus musculus with 15 samples.

Results

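The autophagy and lysosome genes described here are the genes whose symbols follow the names of the core autophagy proteins (Atg, Ulk, Wipi, Map1lc3 and Gabarap genes), of lysosomal membrane proteins and channels (Lamp and Mcoln genes), of cathepsins and of the proton pump of the lysosome (Atp6v and Atp6ap genes), together with Becn1, Sqstm1, Ambra1, Tfeb and Tfe3. They were selected by name alone, and 54 of the 8059 genes in the deposited table met that rule. The libraries hold bulk RNA of muscle stem cells of the mouse (satellite cells), which rest beside the muscle fibre until the tissue is damaged. The libraries fall into T15, T30, T60, T90 and T120, which the labels call dissociated tissue, and T0, which they call intact tissue, with 4, 3, 4, 3 and 4 libraries at the later times and 4 at T0. The time numbers carry no unit in the labels and are read here as minutes of digestion. Per the labels' protocols the digestion used collagenase and dispase and the fixation PFA, and every bulk group, T0 included, is labelled as fixed. The sources used here do not give the strain, genotype and age of the mice or the sort of the bulk cells. The labels hold 1 entry for each time point, and the libraries of a time point are columns of the table with the letters A to D. Nothing says whether these came from separate mice, so p-values measure the spread between libraries, which may be technical.

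Autophagy wraps part of the cytoplasm in a double membrane, the autophagosome, and delivers it to the lysosome for digestion. The ULK1 kinase complex starts the process, the class III PI3-kinase complex with Beclin 1 marks the site, ATG9 and ATG2 supply lipid, and a conjugation machinery of ubiquitin-like proteins attaches proteins of the ATG8 family (LC3 and GABARAP) to the growing membrane. Receptors such as p62, the product of Sqstm1, tie cargo to ATG8 proteins. The lysosome is acidified by the V-ATPase, a rotary pump with a cytosolic V1 part and a membrane V0 part, and digests protein with cathepsins. TFEB and TFE3 are transcription factors that bind the CLEAR element of lysosomal gene promoters when mTORC1 is off. In resting satellite cells autophagy is known to be needed to keep the stem cell state, and it is known to increase when these cells leave quiescence.

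Listed genes summed to between 2974294 and 10482407 counts in the libraries of T0, T15 and T30, and to between 8647622 and 27826437 in those of T60, T90 and T120. The table lists only part of each library, so these sums are not sequencing depth. The member with the fewest reads averaged 152 counts per library, and the lowest single count of any member was 43. All 10 satellite cell markers looked for (Pax7, Myf5, Myod1, Calcr, Vcam1, Cdh15, Itga7, Sdc4, Chrdl2 and Spry1) were listed, and their summed level ran from 5790 to 7035 CPM (the usual depth-scaled count, here over listed genes and with TMM factors) at T120 and from 3746 to 4492 CPM at T0. Single markers went both ways: at T120, 4 of the 10 were called up against T0 and 4 down (edgeR, adjusted p under 0.05). In bulk RNA, fewer cells of a type and less RNA per cell cannot be told apart.

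Reads on 8 long genes that are not known as satellite cell genes were more frequent in the early libraries. The 8 were chosen after seeing the data, so this difference between early and late libraries is not an independent result. Over these genes, among them Pclo of neurons, Dnah8 of motile cilia and Muc16 of surface epithelia, the density was 2.46 ± 1.08 CPM per kb of exon at T0 (SD, n = 4), 1.52 ± 1.45 at T15 (n = 4), 4.41 ± 2.68 at T30 (n = 3), 0.114 ± 0.0378 at T60 (n = 4), 0.164 ± 0.128 at T90 (n = 3) and 0.410 ± 0.478 at T120 (n = 4). The highest densities were 6.72 in T30A and 5.04 in T30B. Single libraries carried other means: T15D had 3.69 where the others of T15 had 0.609 to 0.935, T90A had 0.312 where the others of T90 had 0.0875 and 0.0929, and T120B had 1.12 where the others of T120 had 0.115 to 0.239. Taken over each member's exon length, this density came to 50% or more of the measured level for 9 members at T0, 4 at T15 and 28 at T30. At T60, T90 and T120 this held for 0 members. It came to 100% or more for 1 member at T0 and 7 at T30, with the highest share, 201%, in Atg12 at T30. For such members the estimate exceeds all that was measured, so it is too high there. Subtracted values are a rough guide for every member. Values after subtracting this background are given beside many of the results below. The 9 members at T0 were Gabarapl2, Atp6v1c1, Atp6v1h, Atg14, Atg12, Atg4d, Atg9a, Tfe3 and Tfeb.

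The promoters of some members carry the CLEAR element, the site that gives TFEB its link to lysosomal genes, and the stretches around it are shown because they can be set beside the levels below. RefSeq promoter windows (GRCm38.p6, 250 bases before to 50 after the gene's start) matched 44 of the 54 members by symbol. The letters TCACGTGA, which read the same on both strands, were in 7 of the 44 (15.9%), in 152 of 5983 listed genes with a window (2.54%) and in 304 of 27025 windows in all (1.12%). The capitals mark the 8 letters of the element, and each stretch is written 5′ to 3′ on the gene's strand.
Mcoln1 (chr8:3500433-3500518, plus strand): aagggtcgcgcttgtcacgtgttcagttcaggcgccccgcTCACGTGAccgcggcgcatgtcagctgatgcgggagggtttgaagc
Ctsa (chr2:164833720-164833784, plus strand): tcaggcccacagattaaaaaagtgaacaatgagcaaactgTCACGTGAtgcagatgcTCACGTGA
Atp6v0d1 (chr8:105566061-105566108, minus strand): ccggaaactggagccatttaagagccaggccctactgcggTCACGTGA
Atp6v0e (chr17:26676358-26676405, plus strand): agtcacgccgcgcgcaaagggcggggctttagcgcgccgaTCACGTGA
Atg3 (chr16:45158717-45158804, plus strand): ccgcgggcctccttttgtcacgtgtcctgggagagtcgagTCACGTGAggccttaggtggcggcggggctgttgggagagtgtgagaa
Atp6v1a (chr16:44139344-44139431, minus strand): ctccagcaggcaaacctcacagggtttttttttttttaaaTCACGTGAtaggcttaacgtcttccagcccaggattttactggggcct
Ctsd (chr7:142387879-142387966, minus strand): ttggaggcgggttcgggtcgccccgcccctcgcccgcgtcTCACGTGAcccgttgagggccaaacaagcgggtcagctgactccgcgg
Counted from the start that RefSeq gives, which can differ from the GENCODE gene bounds printed below, the element lies 46 bases before the start in Mcoln1, 132 in Atp6v1a, 99 in Ctsd, 72 in Atg3 and 4 in Atp6v0d1, and 3 bases after it in Atp6v0e. Ctsa has it at 13 bases before and at 5 bases after the start. In Mcoln1, Ctsa, Atp6v0e, Atp6v1a and Ctsd the GENCODE gene begins upstream of the element. In Atp6v0e that gene begins at base 26663231 and the stretch shown at base 26676358. The shorter E-box CACGTG, which lies inside the CLEAR element, was in 14 of the 44 members (31.8%), in 13% of listed genes and in 8.09% of all windows. The AP-1 site TGACTCA, searched on both strands, was in 0 of the 44 members, in 4.33% of listed genes and in 5.95% of all windows.

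Few genes of any kind were called at T15 and T30, so the lack of member calls there is not read as particular to the members. All 8059 genes were tested with edgeR's quasi-likelihood test and Benjamini-Hochberg adjustment, and called at an adjusted p under 0.05. By this test 0 members were called at T15 (0.67% of all genes were called) and 0 at T30 (5%). At an unadjusted p under 0.05 these numbers were 0 at T15 and 7 at T30. At T15 DESeq2, limma-voom, the authors' size factors and background subtraction likewise called 0. At T30 DESeq2 called 1, the authors' size factors 1, background subtraction 2 and limma-voom 0, and the authors' deposited table called 2. Between T30 and T15 edgeR called 0 members (4.89% of all genes), with 10 at an unadjusted p under 0.05, while DESeq2 called 4 and limma-voom 0.

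At T60, 14 members rose and 10 fell against T0, 44.4% of the members, where 56.2% of all genes were called (27.9% up and 28.3% down). At T90, 20 rose and 19 fell, 72.2% of the members against 68.8% of all genes (33.8% up and 35% down). At T120, 22 rose and 17 fell, 72.2% of the members against 76.8% of all genes (37.3% up and 39.5% down). The list as a whole did not move one way. Its median log2 fold change was -0.02 at T60, 0.06 at T90 and 0.14 at T120, where that of all genes was -0.03, -0.05 and -0.08. In a joint edgeR test of all 5 later times against T0, 47 members were called, 87% of them, as were 85.7% of all genes. All 14 members that rose by T60 were also called up at T90 and at T120. Of the 10 that fell at T60, 5 were called down at T120 and 2 were called up. Of the members, 24 were first called at T60, 19 at T90 (6 up and 13 down) and 11 in none of these 5 separate comparisons with T0. These comparisons share the T0 libraries. Matching counts of lasting and first calls over all genes are not given, so neither is read as particular to the members.

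**Figure D1:**
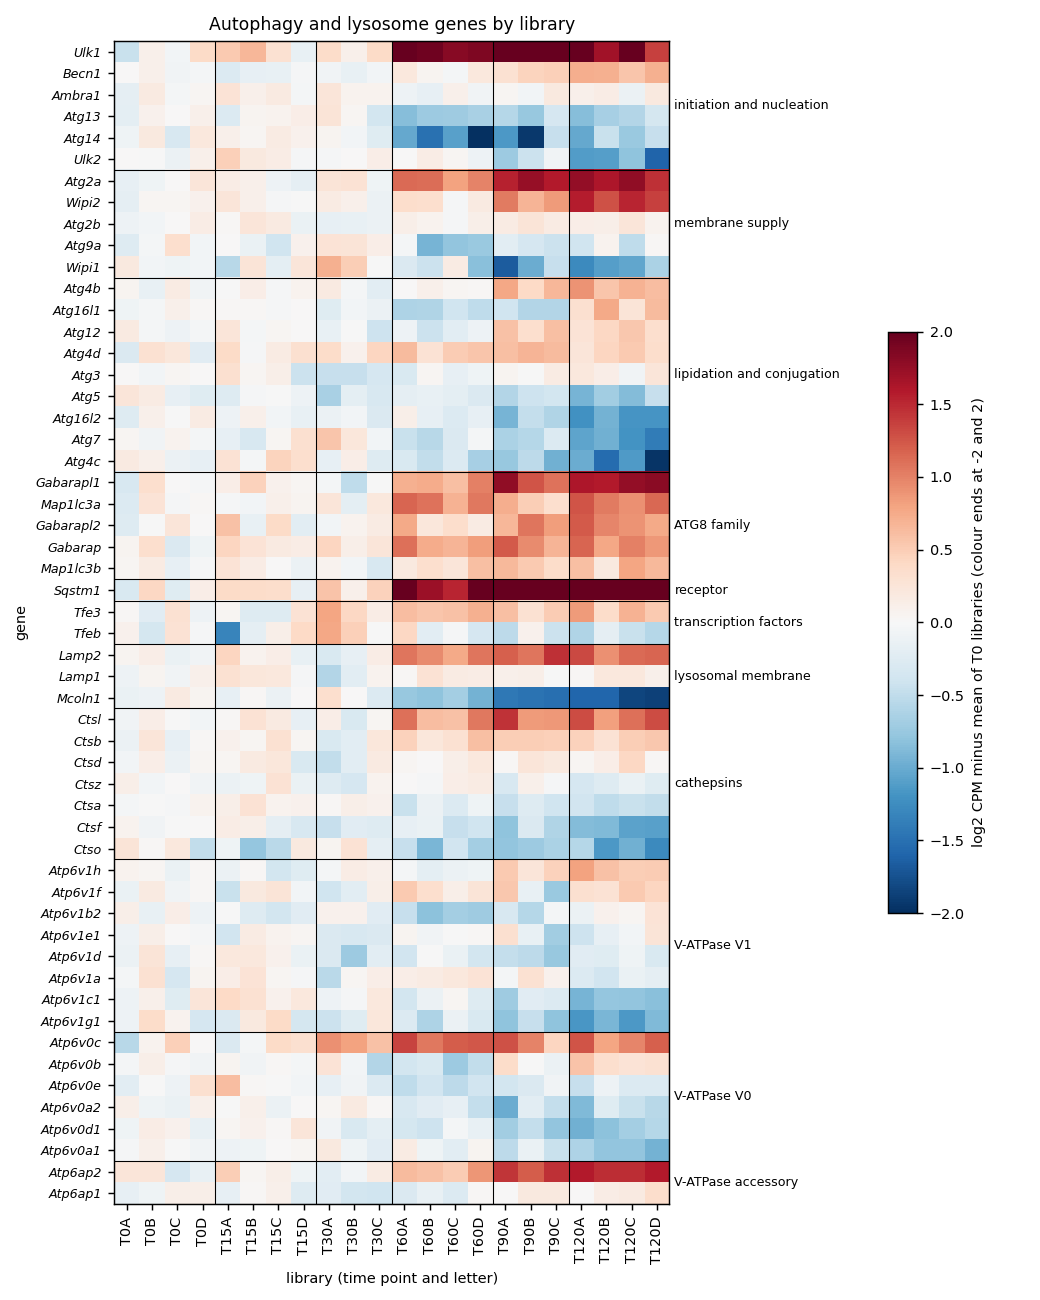
Levels of the 54 members in each of the 22 libraries, as log2 CPM minus the mean log2 CPM of the T0 libraries, with libraries in order of time and members grouped by role. Red is above and blue below T0; Sqstm1 and Ulk1 are the darkest red rows from T60 on, and Mcoln1 is blue from T60 on.

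The steps between neighbouring times do not share T0. From T30 on, 12 members rose and 11 fell at T60 against T30, where 51% of all genes were called (26.5% up and 24.5% down). At T90 against T60, 11 rose and 5 fell (30.3% of all genes, 16.7% up and 13.6% down). At T120 against T90, 4 rose and 7 fell (23% of all genes, 9.11% up and 13.9% down). After background subtraction 10 members were called up and 6 down at T60 against T30, 3 up and 1 down at T90 against T60, and 0 up and 1 down at T120 against T90. The share of all genes called after subtraction is not given for these steps, so these lower counts cannot be set beside those of all genes. Of the 23 calls at T60 against T30, 9 changed sign and 7 kept both their sign and their call. Background at T30 was 10.8% of the level in Lamp1 and 98.8% in Atg14, both among these 9. The median log2 fold change of all genes in this step was 0.01 before and 0.23 after subtraction. How far scaling, rather than a member's own background, moved these values was not tested. Without T90A, 7 members rose at T90 against T60, and 7 rose at T120 against T90. Without T90B or T120D 2 fell in the last step, and without T90C 3. The largest rise of the step to T60 was in Ulk1 (log2 fold change 1.63 ± 0.20 SE, adjusted p = 1.61e-06, edgeR) and that of the step to T120 in Atg16l1 (1.03 ± 0.11, adjusted p = 1.34e-05, edgeR). After subtraction the step of Ulk1 was still called (adjusted p = 0.000376, edgeR), and that of Atg16l1 was not (adjusted p = 0.259, edgeR). Values are ± SE throughout for fold changes, and adjusted p-values are from the same edgeR test.

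Background subtraction lowered the numbers. After it, 10 members were called up and 5 down at T60 (19.7% and 15.3% of all genes), 12 up and 8 down at T90 (26.1% and 22.2%) and 16 up and 10 down at T120 (31.5% and 27.1%). Of the 22 members that rose at T120, 16 were still called up, and of the 17 that fell, 8 were still called down. At T60, 10 of 14 rises and 3 of 10 falls were still called, and at T90, 12 of 20 rises and 6 of 19 falls, the other calls being of members not called before. The spread between libraries was also wider in that fit, with a common biological coefficient of variation of 0.348 against 0.192. The 8 that were still down were Mcoln1, Ulk2, Atp6v1g1, Atp6v0d1, Atp6v0a1, Atp6v0a2, Atg7 and Ctsa.

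**Figure D2:**
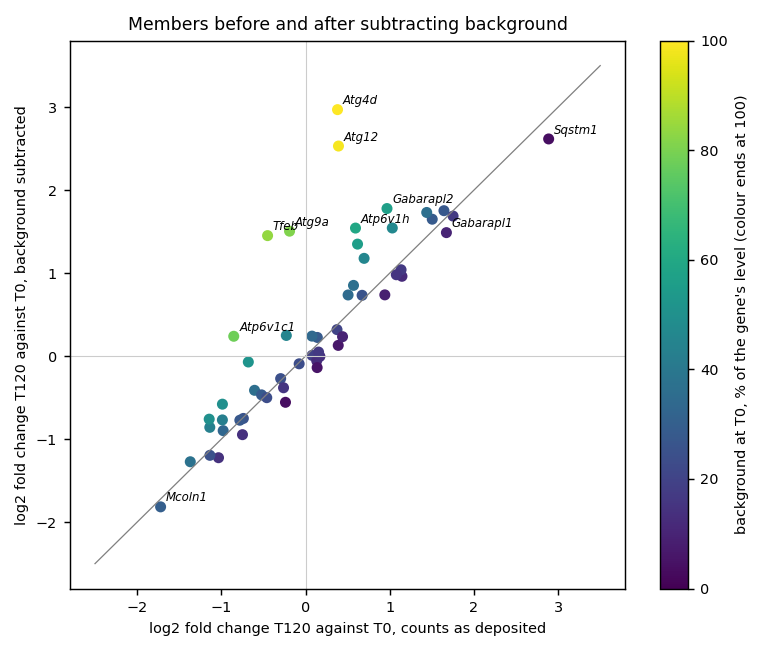
Log2 fold change of each member at T120 against T0, from counts as deposited (x) and after background subtraction (y), with colour giving background as a percentage of the member's level at T0. Sqstm1, Gabarapl1 and Mcoln1 lie near the diagonal, and Atg4d, Atg12, Tfeb and Atg9a, with the largest shares, lie above it.

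The receptor gene Sqstm1 had the largest rise of the members. Sqstm1 (ENSMUSG00000015837, chr11:50199366-50210827, minus strand, GRCm38) encodes p62, which binds ubiquitin-tagged cargo and ATG8 proteins and also holds the NRF2 inhibitor KEAP1. It had 1706, 1290, 1719 and 1639 CPM in the T120 libraries A to D, against 171, 279, 177 and 230 CPM in the T0 libraries. Every T120 library was above every T0 library. Its mean was 214 ± 50.8 CPM at T0 (SD, n = 4), 250 ± 42.3 at T15 (n = 4), 275 ± 45.6 at T30 (n = 3), 746 ± 121 at T60 (n = 4), 1151 ± 308 at T90 (n = 3) and 1589 ± 202 at T120 (n = 4). The T30 libraries overlapped those of T0, and the 4 T60 libraries, at 601 to 846 CPM, were all above the highest T30 library at 313 CPM. The step at T60 against T30 was 1.44 ± 0.21, and after background subtraction it was 0.56 and not called (adjusted p = 0.0552, edgeR). Background was 5.38% of the Sqstm1 level at T30, the lowest share of the members, and what lowered the step was not tested. The step at T90 against T60 was 0.63 ± 0.20. It was not called after subtraction (adjusted p = 0.0563, edgeR), without T60C, or without T90A (0.38). The log2 fold change against T0 was 1.80 ± 0.19 at T60 (adjusted p = 1.17e-07), 2.42 ± 0.20 at T90 (adjusted p = 1.90e-09) and 2.89 ± 0.20 at T120 (adjusted p = 5.54e-11, edgeR), and 2.62 ± 0.21 at T120 after background subtraction.

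Per length of exon, Sqstm1 had the highest mean of the members at every time, with 63.9 CPM per kb at T0 and 473 CPM per kb at T120. At T0 it did not stand apart from Ctsz (63.9 ± 15.1 and 63.7 ± 3.86 CPM per kb, SD, n = 4 each). Among all 8059 genes its log2 fold change ranked 142 at T120. Of its exon bases 17.3% are shared with Mrnip on the other strand, and the sources used here do not say whether reads were counted by strand. Over the 22 libraries the genes whose log2 CPM followed that of Sqstm1 most closely by Pearson's r were Cldnd1 (0.989), Senp2 (0.987), Eif4g2 (0.985), Wwtr1 (0.984) and Serinc3 (0.984). All 22 points share the time course, and no p is given for these values.

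Among the initiation and nucleation genes 2 rose, 3 fell and 1 of 6 was not called at T120, where 37.3% of all genes were called up and 39.5% down. Ulk1 (ENSMUSG00000029512, chr5:110784488-110810097, minus strand), the kinase that starts autophagosome formation, had 385, 358, 326 and 336 CPM in the T60 libraries, against 68.3, 99.5, 89.4 and 121 CPM in the T0 libraries. It had a log2 fold change of 1.89 ± 0.18 at T60 (adjusted p = 2.13e-08), 2.14 ± 0.19 at T90 (adjusted p = 3.69e-09) and 1.75 ± 0.18 at T120 (adjusted p = 1.62e-08, edgeR). The T120 libraries, at 238 to 375 CPM, were also above all T0 libraries. Its paralogue Ulk2, also a kinase of initiation, went the other way, with 27.3, 27.6, 34.0 and 19.6 CPM at T120 against 59.8, 59.3, 55 and 63.8 CPM at T0. None of the T120 libraries reached the lowest T0 library. Ulk2 was not called at T60 (0.02 ± 0.15) and fell by 0.38 at T90 and 1.14 at T120 on the log2 scale (adjusted p = 7.84e-07 at T120, edgeR). The T90 call (adjusted p = 0.0382, edgeR) was not made with DESeq2, with the authors' size factors, after subtraction (adjusted p = 0.0733), without the 5 libraries of highest background, or without T0A, T0B, T0D, T90A or T90B, with the smallest value, -0.25, without T90A.

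Becn1, which encodes Beclin 1 of the PI3-kinase complex, had 112, 111, 99.4 and 111 CPM at T120 against 67.9, 73.0, 64.8 and 66.2 CPM at T0. The groups did not overlap, and the log2 fold change was 0.67 ± 0.08 (adjusted p = 1.96e-07, edgeR). Of Becn1's exon bases 43.9% lie opposite those of Cntd1. Atg14, which directs that complex to autophagosomes, was low throughout, with 7.84 ± 2.43 CPM at T60 against 20.5 ± 3.55 CPM at T0 (SD, n = 4 each). Its T60 libraries were all below the T0 libraries, and its log2 fold change was -1.40 ± 0.26 at T60 (adjusted p = 0.000103) and -0.68 ± 0.25 at T120 (adjusted p = 0.0185, edgeR). Background was 51.8% of its T0 level, and after subtraction neither call was made (-0.76 ± 0.96 at T60 and -0.07 ± 0.96 at T120). Atg13, a partner of ULK1, fell by 0.74 at T60 and 0.61 at T120 on the log2 scale, and Ambra1, which binds Beclin 1, was not called at any of the times (0.08 ± 0.10 at T120). The Atg13 fall at T120 was not called after subtraction (-0.41 ± 0.20).

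Of the 5 genes for membrane supply, 2 rose and 1 fell at T120 (37.3% of all genes up and 39.5% down). Atg2a, a lipid transfer protein that feeds the growing membrane, had 233, 212, 236 and 190 CPM at T120 against 61.3, 64.9, 69.8 and 82.1 CPM at T0, with no overlap. Its log2 fold change was 1.00 ± 0.11 at T60, 1.61 ± 0.12 at T90 and 1.64 ± 0.12 at T120 (adjusted p = 8.51e-11 at T120, edgeR). Its paralogue Atg2b, of like function, was not called at any single time against T0 and averaged between 0.07 and 0.19 above T0 on the log2 scale from T60 on. In the joint test Atg2b was called (adjusted p = 0.0331, edgeR). Wipi2, which reads the lipid made by the PI3-kinase and recruits ATG16L1, rose later, with 214, 174, 207 and 186 CPM at T120 against 63.4, 73.7, 73.7 and 76.4 CPM at T0. Wipi2 was not called at T60 (0.22 ± 0.11), and its log2 fold change was 0.86 ± 0.11 at T90 and 1.44 ± 0.11 at T120 (adjusted p = 2.39e-10, edgeR). Wipi1, its relative, was 8.97, 10.2, 10.6 and 14.0 CPM at T120 against 20.4 to 24.8 CPM at T0, with no overlap, a change of -0.99 ± 0.25 that was not called after background subtraction (-0.58 ± 0.38). Atg9a, a lipid scramblase on vesicles, was called down against T0 at T60 only (-0.59 ± 0.19, adjusted p = 0.0143, edgeR). Background equalled 81.2% of its T0 level, and after subtraction its T60 value was 1.17, of opposite sign. A further 31.8% of the exon bases of Atg9a are shared with Gm29253 on the same strand.

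**Figure D3:**
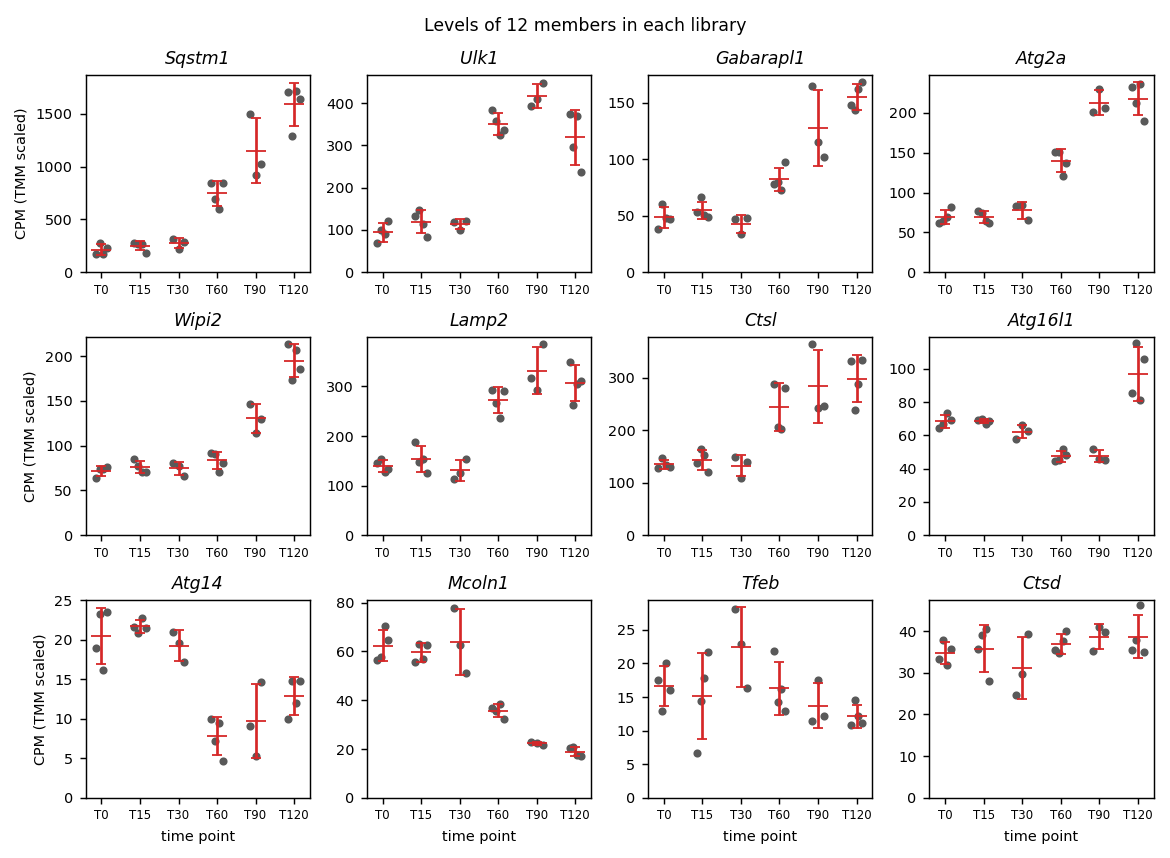
CPM (TMM scaled) of 12 members in each library (grey points), with the mean and SD of each time point (red). Sqstm1 and Gabarapl1 climb from T60 to T120, Ulk1 is raised by T60, Wipi2 climbs only after T60, Atg16l1 drops at T60 and T90 and is above T0 at T120, and Mcoln1 declines.

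The conjugation genes moved in both directions, as did all genes. Of 9 members, 4 rose, 4 fell and 1 was not called at T120, where 37.3% of all genes were called up and 39.5% down. Atg16l1, the scaffold that sets where ATG8 is attached, had 44.7, 45.1, 52.0 and 47.9 CPM at T60, all below the T0 libraries at 64.5 to 73.2 CPM, and 85.2, 115, 81.5 and 106 CPM at T120, all above them. Its log2 fold change was -0.53 ± 0.10 at T60 (adjusted p = 0.000172), -0.52 ± 0.11 at T90 (adjusted p = 0.000257) and 0.51 ± 0.10 at T120 (adjusted p = 0.000117, edgeR). It is 1 of the 2 members called in both directions, the other being Atp6v0b. After background subtraction Atg16l1 was called at none of these times (-0.37 ± 0.50 at T60, -0.38 ± 0.54 at T90 and 0.74 ± 0.50 at T120). Its relative Atg16l2 fell, with 20.7, 24.9, 21.1 and 21.1 CPM at T120 against 39.9, 51.5, 47.8 and 53.3 CPM at T0 (-1.14 ± 0.12, adjusted p = 4.39e-08, edgeR), and after subtraction it was -0.86 ± 0.57 and not called.

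Atg7, the E1-like enzyme of the conjugation, had 16.6, 17.6, 15.1 and 13.1 CPM at T120 against 35.4, 32.7, 36.0 and 33.4 CPM at T0, with no overlap. Its log2 fold change was -1.14 ± 0.16 at T120 (adjusted p = 1.59e-06, edgeR) and -0.76 ± 0.29 after subtraction, which was still called. Atg5, conjugated to Atg12 in the E3-like complex, was 11.7, 13.7, 12.2 and 16.3 CPM at T120 against 26.3, 25.0, 19.8 and 19.0 CPM at T0 (-0.74 ± 0.14, adjusted p = 9.70e-05, edgeR), and was not called after subtraction (-0.75 ± 0.52). Among the ATG4 proteases, which process ATG8 proteins, Atg4c fell by 1.37 and Atg4b rose by 0.70 on the log2 scale at T120 (adjusted p = 1.33e-06 and 5.11e-06, edgeR), and neither was called after subtraction. Atg4d rose by 0.38 and Atg12 by 0.39 on the log2 scale at T120. Their background equalled 134% and 98.8% of the T0 level, and only Atg12 was called after subtraction (2.53 ± 1.07, adjusted p = 0.0489, edgeR; Atg4d 2.97 ± 1.31). The E2-like enzyme gene Atg3 was not called at any single time against T0 (0.13 ± 0.12 at T120), but was called in the joint test (adjusted p = 0.0115, edgeR). After subtraction Atg3 was called down at T60 (-0.39 ± 0.13) and was not called in the joint test (adjusted p = 0.0750, edgeR).

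**Figure D4:**
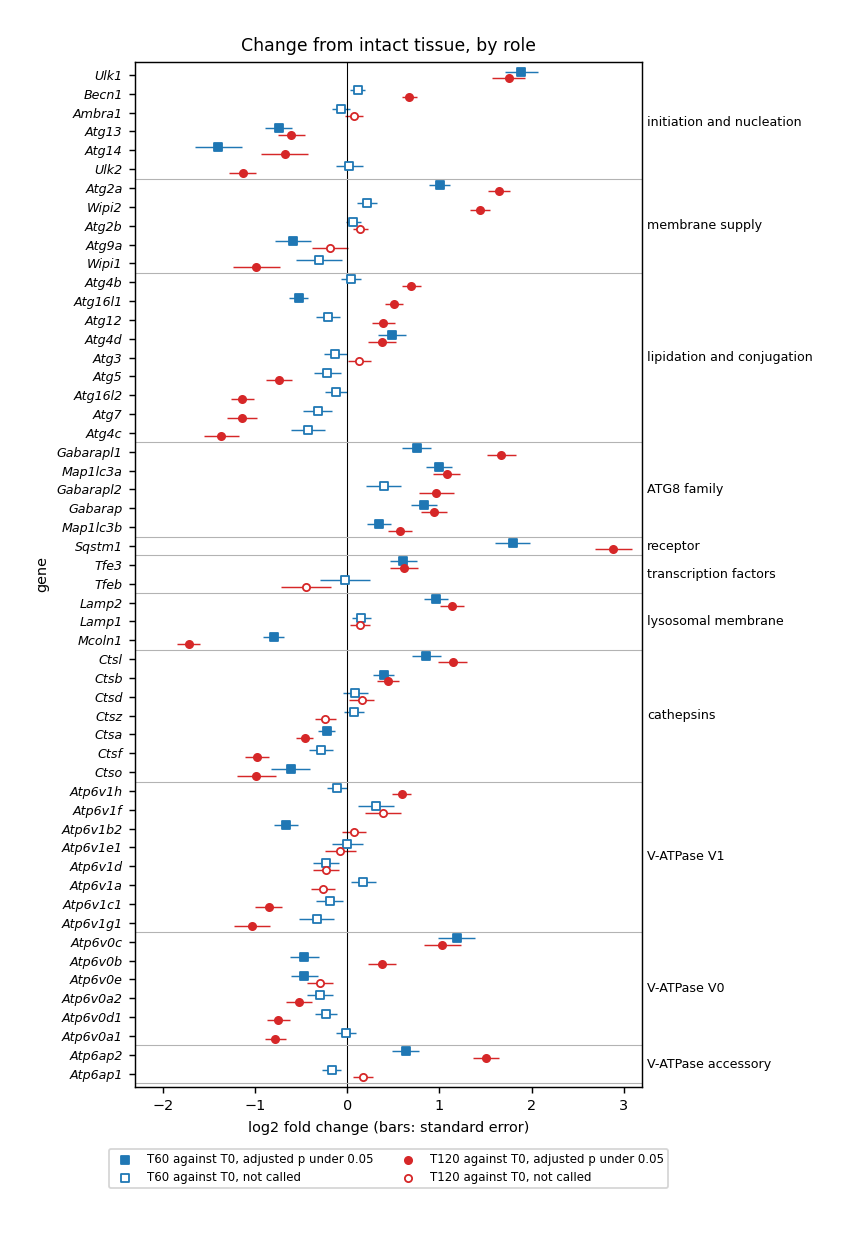
Log2 fold change of each of the 54 members against T0 at T60 (blue squares) and T120 (red circles), with bars for the standard error and filled markers for an adjusted p under 0.05, grouped by role. All 5 members of the ATG8 family lie to the right of 0 at both times, while the cathepsins and the V-ATPase subunits lie on both sides.

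All 5 members of the ATG8 family rose by T90 and were up at T120, where their median log2 fold change was 0.97, against -0.08 for all genes. Of all genes, 33.8% were called up at T90 and 37.3% at T120. After background subtraction Gabarap and Gabarapl1 were still called up at T90. Map1lc3a (0.34), Map1lc3b (0.76) and Gabarapl2 (1.62) were not called there (adjusted p = 0.178, 0.0681 and 0.158, edgeR). Gabarapl1 (ENSMUSG00000030161, chr6:129533160-129542346, plus strand), a GABARAP-type ATG8, had 148, 144, 162 and 168 CPM at T120, against 38.4, 60.7, 48.3 and 47.6 CPM at T0. The groups did not overlap, and the log2 fold change was 0.75 ± 0.16 at T60, 1.38 ± 0.17 at T90 and 1.67 ± 0.16 at T120 (adjusted p = 6.99e-09 at T120, edgeR). Gabarap had 113, 85.5, 101 and 91.6 CPM at T120 against 51.7, 62.9, 40.8 and 47.2 CPM at T0, a log2 fold change of 0.94 ± 0.14. It was already 0.83 ± 0.14 above T0 at T60.

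Map1lc3a, an LC3-type ATG8, rose by T60 and was lower again at T90. It had 41.5, 39.0, 29.8 and 38.3 CPM at T60, 30.7, 26.0 and 23.3 CPM at T90 and 44.1, 37.9, 34.8 and 40.9 CPM at T120, with all T0 libraries at 15.2 to 22.4 CPM. The T90 step against T60 was -0.48 ± 0.15 and the T120 step against T90 was 0.57 ± 0.15 (adjusted p = 0.0193 and 0.0110, edgeR). Neither step of Map1lc3a was called after background subtraction (adjusted p = 0.141 and 0.0594, edgeR) or without T90C (adjusted p = 0.0832 and 0.0529, edgeR). Map1lc3b, the LC3 most used as an autophagy marker, rose less, by 0.57 ± 0.13 at T120, with 76.5, 57.2, 86.4 and 79.0 CPM against 51.4, 56.2, 44.7 and 49.3 CPM at T0. The lowest T120 library of Map1lc3b lay just above the highest T0 library. Gabarapl2 rose by 0.97 ± 0.19 on the log2 scale at T120 and was not called after subtraction (1.78 ± 0.87). The other 4 members of the family were called up at T120 after subtraction.

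Summed over the 5 genes per length, the family stood at 182 ± 11.1 CPM per kb at T120, against 78.5 ± 11.2 CPM per kb at T0 (SD, n = 4 each). Gabarapl1 made up 42.4% of that sum at T120 and 30.8% at T0, while Gabarap made up 29.1% and 35.0%. Gabarapl1 was followed over the 22 libraries most closely by Pttg1ip (r = 0.975), 1810011O10Rik (0.970), Gm27019 (0.970), Rab21 (0.970) and 2810403A07Rik (0.969). Of the exon bases of Gabarapl1, 28.3% lie opposite 1700101I11Rik.

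**Figure D5:**
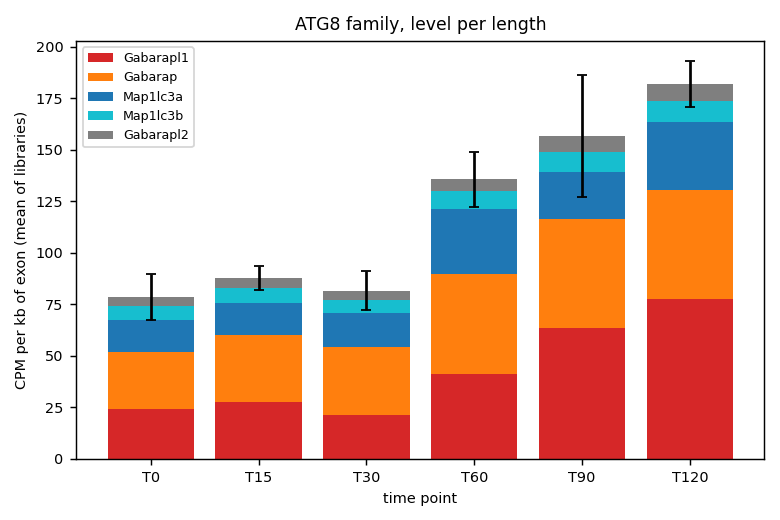
Mean level of the ATG8 family in CPM per kb of exon at each time point, stacked by gene, with the SD of the library sums. The sum is 78.5 at T0 and 182 at T120, and the Gabarapl1 segment is the largest from T90 on.

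Of the transcription factor genes, Tfeb was low and not called, and Tfe3 rose. Tfeb had 10.8, 14.6, 12.1 and 11.1 CPM at T120 against 17.5, 12.9, 20.1 and 16.1 CPM at T0, and these overlapped. It was not called at any time against T0 (-0.45 ± 0.27 at T120, adjusted p = 0.138, edgeR). Its background equalled 83.7% of the T0 level, so the sign at T120 depended on the subtraction (1.45 ± 1.01 after it, not called). Tfe3 rose, with 73.5, 52.4, 65.7 and 58.2 CPM at T120 against 41.0, 34.6, 50.3 and 37.8 CPM at T0. The T120 libraries were all above the T0 libraries, and the log2 fold change was 0.61 ± 0.15 at T60 and 0.62 ± 0.15 at T120 (adjusted p = 0.000925 at T120, edgeR), or 1.35 ± 0.21 after subtraction.

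Of the lysosomal membrane genes Lamp2 rose, Mcoln1 fell and Lamp1 was not called at any single time against T0. Lamp2 (ENSMUSG00000016534, chrX:38401357-38456454, minus strand), a major membrane glycoprotein whose isoforms serve fusion and chaperone-mediated autophagy, had 350, 262, 305 and 311 CPM at T120 against 145, 153, 127 and 133 CPM at T0. Its log2 fold change was 0.96 ± 0.13 at T60 and 1.13 ± 0.13 at T120 (adjusted p = 1.22e-07 at T120, edgeR), and no T120 library overlapped T0. Lamp1 had 129, 146, 146 and 136 CPM at T120 against 118, 131, 121 and 136 CPM at T0, which overlapped (0.14 ± 0.11). In the joint test Lamp1 was called (adjusted p = 0.0426, edgeR). Mcoln1 (ENSMUSG00000004567, chr8:3500457-3515232, plus strand), the lysosomal calcium channel whose opening activates TFEB, had 20.6, 20.7, 17.4 and 17.1 CPM at T120 against 56.6, 57.7, 70.4 and 64.5 CPM at T0. The groups did not overlap, and the fall was stepwise: -0.80 ± 0.12 at T60, -1.48 ± 0.13 at T90 and -1.72 ± 0.12 at T120 (adjusted p = 8.48e-11 at T120, edgeR). After subtraction the T120 value was -1.82 ± 0.15.

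Of the 7 cathepsin genes listed, 2 rose and 3 fell at T120 (37.3% of all genes up and 39.5% down). Ctsl, a cysteine protease of the lysosome, had 331, 238, 288 and 333 CPM at T120 against 128, 147, 133 and 130 CPM at T0. Its log2 fold change was 0.86 ± 0.16 at T60 and 1.15 ± 0.16 at T120 (adjusted p = 1.16e-06 at T120, edgeR), with no overlap. Ctsb, a related protease, rose by 0.44 ± 0.12 at T120, and Ctsd, the aspartic protease of the lysosome, was not called at any time (0.16 ± 0.14). Ctsa, a carboxypeptidase that protects other hydrolases, fell by 0.46 on the log2 scale. Ctsf, a cysteine protease, fell by 0.98 and Ctso, a less studied relative, by 0.99 on the log2 scale at T120, and neither Ctsf nor Ctso was called after subtraction. Ctsz, highest of the family per length, stood at 54.0 CPM per kb at T120 and 63.7 CPM per kb at T0 and was not called (-0.24 ± 0.11, adjusted p = 0.0585, edgeR), though it was called down after subtraction (-0.56 ± 0.15). Several of these overlap other genes: 26.8% of the exon bases of Ctsl lie opposite Gm47123, 12.8% of those of Ctsb opposite Fdft1, 10.5% of those of Ctsa opposite Pltp, and 34.4% of those of Ctsd are shared with Gm49369 on the same strand.

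The V-ATPase genes, like all genes, went both ways. Of 8 V1 genes, 1 rose and 2 fell at T120, and of 6 V0 genes, 2 rose and 3 fell. Of all genes, 37.3% were called up and 39.5% down there. In V1, Atp6v1h, the regulatory subunit, had 70.3, 60.2, 56.5 and 57.1 CPM at T120 against 42.3, 41.4, 36.6 and 41.0 CPM at T0 (0.59 ± 0.10, adjusted p = 2.62e-05, edgeR), but background was 59.4% of its T0 level and the rise was not called after subtraction (1.54 ± 1.02). Atp6v1g1, a stalk subunit, had 8.65, 10.3, 8.78 and 10.5 CPM at T120 against 18.1, 24.9, 20.4 and 15.4 CPM at T0 (-1.03 ± 0.20, adjusted p = 7.69e-05, edgeR), with no overlap, and was still called after subtraction. Atp6v1c1, which joins V1 to V0, fell by 0.85 ± 0.15 on the log2 scale, and after subtraction it was 0.24 ± 1.23, of opposite sign. Atp6v1b2, of the ATP-binding ring, fell against T0 at T60 only (-0.66 ± 0.13, adjusted p = 0.000257, edgeR), and was not called there after subtraction (-0.54 ± 0.22).

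In V0, the proton-carrying ring subunit gene Atp6v0c rose by T60, with 44.1, 35.7, 39.9 and 40.8 CPM at T60 against 11.7, 18.1, 24 and 17.3 CPM at T0. It was 1.19 ± 0.20 above T0 at T60 and 1.03 ± 0.20 at T120 (adjusted p = 1.00e-04 at T120, edgeR). Its T30 libraries, at 25.9 to 32.3 CPM, were all above the T0 libraries, but the T30 difference was not called by edgeR (0.73 ± 0.22, adjusted p = 0.0547), while DESeq2 called it. The reference annotation also holds processed copies of Atp6v0c, with which its reads could be shared. Atp6v0a1 and Atp6v0a2, isoforms of the large membrane subunit, fell by 0.78 and 0.52 on the log2 scale at T120, and Atp6v0d1, of the central stalk, by 0.75 (adjusted p = 2.13e-06, 0.00236 and 1.55e-05, edgeR). All of these 3 were still called after subtraction. Atp6v0b, another ring subunit, was -0.46 ± 0.15 at T60 and 0.37 ± 0.15 at T120, both called. The T120 call of Atp6v0b was not made after subtraction (0.32 ± 0.22) or without T0A, T0C, T0D or T120A (adjusted p between 0.0560 and 0.0714, edgeR). Atp6v0e, a small membrane subunit, was called at T60 (-0.47 ± 0.14, adjusted p = 0.00945, edgeR) and not at T120 (-0.30 ± 0.14), and not after subtraction.

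The accessory protein gene Atp6ap2, which encodes the prorenin receptor needed to assemble the pump, had 66.8, 62.0, 61.9 and 67.1 CPM at T120 against 26.5, 26.3, 17.6 and 20.2 CPM at T0. The groups did not overlap, and its log2 fold change was 0.63 ± 0.14 at T60, 1.35 ± 0.15 at T90 and 1.5 ± 0.14 at T120 (adjusted p = 6.84e-09 at T120, edgeR). After subtraction the T60 value was 0.70 ± 0.31 and not called. Atp6ap1, the other accessory subunit gene, was not called against T0 at any single time (0.17 ± 0.11 at T120), but was called in the joint test (adjusted p = 0.00342, edgeR). Per length, the summed V1 genes stood at 102 ± 6.29 CPM per kb at T120, against 102 ± 9.56 CPM per kb at T0, and the summed V0 genes at 56.7 ± 0.838 against 63.1 ± 2.96 (SD, n = 4 each).

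Of the 7 members with the CLEAR letters shown above, 0 were called up and 3 down at T120 (Mcoln1, Ctsa and Atp6v0d1), with a median log2 fold change of -0.30. Of the 37 matched members without the letters, 16 were called up and 11 down, with a median of 0.14. Of all genes, 37.3% were called up and 39.5% down at T120. These are counts over the windows searched, and the difference was not tested.

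Other genes of the same pathways were counted from lists drawn up by function, beside all genes at T120, of which 37.3% were called up and 39.5% down. Of 32 listed genes for lysosomal hydrolases and membrane proteins outside the rule, 2 rose and 19 fell, with a median log2 fold change of -0.49 against -0.08 for all genes, and 1 up and 12 down after background subtraction. The 3 largest falls were in Slc38a9, an arginine sensor of the lysosome (-1.91 ± 0.18), Gnptab, which makes the mannose-phosphate tag of lysosomal enzymes (-1.56 ± 0.13), and Smpd1, acid sphingomyelinase (-1.53 ± 0.19). The 2 that rose were Cd63, a tetraspanin of late endosomes (1.26 ± 0.13), and M6pr, a receptor for tagged enzymes (0.29 ± 0.10).

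Of 14 further initiation genes, 5 rose and 8 fell. The PI3-kinase subunit genes Pik3c3 and Pik3r4 changed by -1.88 ± 0.16 and -2 ± 0.17, and the inhibitor Bcl2 by -1.30 ± 0.14, while the AMPK subunit gene Prkab2 changed by 2.55 ± 0.17, Vmp1, an ER scramblase, by 1.43 ± 0.12 and Rb1cc1, the scaffold of the ULK complex, by 0.75 ± 0.14. Of 11 further receptor and adaptor genes, 3 rose (Tax1bp1 1.27 ± 0.12, Tollip 0.95 ± 0.10 and Tbk1 0.63 ± 0.12) and 7 fell, led by Tecpr1 (-1.59 ± 0.16), Calcoco1 (-1.47 ± 0.18) and Tecpr2 (-1.34 ± 0.22). Of 11 fusion genes, 4 rose and 6 fell, led by Ykt6 (1.19 ± 0.18), Rab7 (0.93 ± 0.09) and Plekhm1 (0.58 ± 0.10) and by Vps39 (-1.90 ± 0.13), Vps33a (-1.47 ± 0.14) and Epg5 (-1.44 ± 0.12).

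Of 20 mTORC1 and nutrient-sensing genes, 6 rose and 10 fell. Sesn2, a leucine sensor induced by stress, changed by 1.88 ± 0.35, Fnip1, a partner of folliculin, by 1.17 ± 0.15 and Rheb, the activator of mTORC1, by 0.82 ± 0.15. Its relative Sesn1 changed by -2.59 ± 0.19, Ddit4, an inhibitor of mTORC1, by -1.75 ± 0.41 and Nprl3, of the GATOR1 complex, by -1.58 ± 0.27. Among regulators of lysosomal gene transcription outside the rule, Atf4 rose by 2.92 ± 0.14 and Nfe2l2 by 1.25 ± 0.14, while Foxo3 changed by -1.98 ± 0.20, Foxo1 by -1.35 ± 0.13 and Zkscan3, a repressor of autophagy genes, by -1.18 ± 0.10.

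Markers of other cell types moved with time as well. All 5 listed endothelial markers (Cdh5, Flt1, Kdr, Pecam1 and Tek, of 8 looked for) rose at T120, and their summed level was 321 to 599 CPM in the T120 libraries, against 149 to 240 CPM in the T0 libraries. The 5 listed smooth muscle and pericyte markers of 6 summed to 452 to 640 CPM at T120 and 185 to 294 CPM at T0, and the 6 listed myofibre markers of 10 to 169 to 404 CPM and 404 to 593 CPM. The 4 listed fibro-adipogenic markers of 7 summed to 1673 to 2077 CPM at T120 and 1531 to 2710 CPM at T0. These sums hide single markers. At T120, 2 smooth muscle and pericyte markers were called up and 0 down, and 2 myofibre markers up and 3 down. Of the fibro-adipogenic markers 2 were called up and 0 down, with a median log2 fold change of 0.33. Other times differed. Myofibre markers summed to 400 to 979 CPM at T30 and 189 to 257 CPM at T60. At T60, 4 myofibre markers were called down and 0 up, 2 smooth muscle and pericyte markers up and 0 down, and 1 endothelial marker down and 0 up. Of 15 macrophage markers Cd68 was listed, at 11.2 to 25.2 CPM at T120, 20.9 to 50.5 CPM at T30 and 9.44 to 11.9 CPM at T0. Cd68 was called up at T30, T60 and T120, and the other macrophage markers were not analysed here. These cells also express autophagy and lysosome genes, and their part in the results was not tested.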

How the data were processed

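Bulk libraries of mouse muscle stem cells were analysed from the deposited table of whole-number counts per gene, with columns named by time and letter, per the file headers. The submitters' processing notes name featureCounts 1.4.5-p3, cutadapt 1.11 and DESeq2 1.18.1 among the tools, and the build mm10; the sources used here give neither the aligner nor the strand setting. The deposited table also holds scaled counts, a score, from which the authors' size factors were read for an alternative. Per comparison the deposited table gives a log2 fold change and an adjusted p-value, which were set beside the calls made here. All other columns were not used: 34 group or fold columns, and 0 columns of unmatched samples.

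Counts of all 8059 listed genes were tested with edgeR 4.0.16 (R 4.3.3) with TMM factors and 1 fit for the 22 libraries, with Benjamini-Hochberg adjustment and a threshold of 0.05. The low-count filter (filterByExpr) kept all genes. SE was derived from the log2 fold change and its F statistic. TMM takes most genes as unchanged, so a shift shared by most genes could not be seen. Positions and exon lengths are from GENCODE vM21 (GRCm38), 1-based, and promoters from RefSeq. Genes that match the name rule but are not in the table, among them Ctss and Atp6v0d2, were not analysed here. Genes were named by role, up to 4 called members each way per role at T120, T60 and T30 plus a short list of well-known members. The members, gene lists and the 8 background genes were chosen with earlier results of these data known. Alternatives were DESeq2 1.42.0, limma-voom (limma 3.58.1), the authors' size factors, no filter, a replicate block by library letter, each library left out, background subtraction and leaving out the 5 libraries of highest background. The 8 background genes, and recounting the gene lists under the alternatives, were chosen after seeing the data. A result for 1 gene of the lists is not reported here.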

Additional observations from a re-analysis of the deposited data

Results flagged for a closer look

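Among 216 groups of 4 libraries, 8 had a library whose gap to the nearest other exceeded Dixon's 95% critical value for 4 values; chance flags about 1 in 20 groups. These were Sqstm1 in T15D at 187 CPM (the others at 269 to 275), Atp6v0e in T15A at 56.4 CPM (35.3 to 37.4), Ctsa in T15B at 61.1 CPM (52.7 to 54.0) and Ctsz in T15C at 112 CPM (83.6 to 86.8). The others were Becn1 in T120C at 99.4 CPM (111 to 112), Atg16l2 in T120B at 24.9 CPM (20.7 to 21.1), Atg9a in T60A at 16.8 CPM (9.06 to 10.3) and Wipi1 in T0A at 24.8 CPM (20.4 to 21). No library held more than 1 of the 8.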

How the results depend on the processing

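Of 152 calls of members, 149 were kept with DESeq2, 151 with limma-voom, 145 with the authors' size factors, 152 with no filter, 150 with the replicate block by library letter, 124 without the 5 libraries of highest background and 67 after background subtraction. With the replicate block 22 members rose and 18 fell at T120, and 14 rose and 11 fell at T60. Same-letter libraries correlated at a median of 0.116 and libraries of other letters at -0.0209. Of the same-letter pairs 26 of 51 were over 0.1, and 10 of 22 libraries were closest to their own letter. Letters were not taken to pair libraries in the main fit, and whether they do was not tested.

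After background subtraction members called down were 5 at T60, 8 at T90 and 10 at T120 against T0, those called up 2 at T30 and 12 at T90, and those called at any time 29. For the steps, 1 was up at T30 against T15, 6 down at T60 against T30, 3 up and 1 down at T90 against T60, and 0 up and 1 down at T120 against T90. Its values of opposite sign were, at T60 against T0, Atg9a 1.17; at T90, Atg7 0.042 and Atp6v1c1 0.89; at T120, Atp6v1c1 0.24; and at T60 against T30, Atg14 0.59, Atg16l1 0.49, Atg7 0.74, Atg9a 1.22, Ctsb -0.059, Ctso 0.40, Gabarap -0.15, Lamp1 -0.31 and Wipi1 0.025. Without the 5 libraries of highest background 1 member was down at T60 against T30.

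DESeq2 called 1 member up at T30 against T0, and 2 up and 2 down at T30 against T15; the authors' size factors called 1 up at T30; limma-voom called 7 up at T120 against T90. Leaving out 1 library at a time gave 0 to 2 up and 0 to 1 down at T30 against T0, 0 to 2 up and 0 to 4 down at T30 against T15, 7 to 12 up at T90 against T60, and 3 to 7 up and 2 to 8 down at T120 against T90 (2 without T90B or T120D), the 7 in each case without T90A; the causes were not tested.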
